A study of Mus musculus with 6 samples.

Results

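Megakaryocyte and platelet genes were followed here in erythroid cells: Treml1, Itga2b, Itgb3, Gp1ba, Gp1bb, Gp5, Gp9 and Pf4. Every non-control probe whose gene name in the array design was one of these was taken, which gave 11 probes for 8 genes among 55681 probes on the array. Of the 11 probes, 6 stood alone for their gene, 2 belonged to Itgb3 and 3 to Gp1bb. The arrays came from G1E-ER-GATA-1 cells, mouse erythroid precursors made from a GATA-1-null line, in which a fusion of GATA-1 with the ligand domain of the estrogen receptor takes its place. The groups compared were 3 arrays of cells given Foxo3 siRNA and 3 arrays of cells given nontargeting siRNA. Both groups were nucleofected at 0 h and again at 24 h, both received ß-estradiol for the last 24 h so that ER-GATA-1 was active, and total RNA was taken at 48 h. All cells grew with erythropoietin, Kit ligand medium and puromycin, and no array of cells without estradiol was used here. The model is 1 cell line, and the labels do not say whether replicates were grown apart. The p-values below therefore reflect the spread among these 6 samples only, and that spread may be technical.

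As background, megakaryocytes and erythroid cells share a progenitor and depend on GATA-1, which works with FOG-1 in both and, in megakaryocytes, beside the ETS factor FLI1 and RUNX1. The platelet surface carries a fibrinogen receptor, made of the αIIb chain (Itga2b) and the β3 chain (Itgb3), and a von Willebrand factor receptor, made of glycoproteins Ibα, Ibβ, IX and V (Gp1ba, Gp1bb, Gp9 and Gp5). Alpha granules store the chemokine platelet factor 4 (Pf4) and the TREM-like receptor TLT-1 (Treml1), both of which appear outside the cell when platelets are activated.

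The 8 genes did not move together. Treml1 rose 5.67-fold with Foxo3 siRNA, Itga2b rose 2.40-fold and Gp1ba rose 1.50-fold, while Itgb3 fell to 57.6% of the nontargeting level on 1 probe and to 55.5% on the other. Gp1bb, Gp5, Gp9 and Pf4 were not called in either direction. Of the 9 member probes that passed the filter on dim signals, 5 were called at an adjusted p under 0.05, against 25.4% of all 27038 probes that passed it. Of the same 9 probes 3 were called higher, against 12.1% of all kept probes, and 2 were called lower, against 13.3%. Both that fell are probes of Itgb3. The 2 groups of arrays did not overlap at the same 5 member probes, against 49.4% of all kept probes. The median log2 difference of the 9 kept member probes was −0.16, and that of all kept probes was also −0.16. In these bulk RNA samples, fewer cells of a type and less RNA per cell cannot be told apart.

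Values are given below as the processed spot signal of each array, in scanner units, and then on a scaled log2 scale, which is log2 of the signal minus the 75th percentile of that array. A log2 difference is the mean with Foxo3 siRNA minus the mean with nontargeting siRNA. It carries its SE and the adjusted p of limma's moderated test, Benjamini-Hochberg adjusted over all kept probes.

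The arrays themselves differed in signal over background. Foxo3 siRNA replicate 3 had 20343 spots well above background, against 30619 to 37532 on the other 5 arrays, and 50.2% of its spots carried a surrogate for a signal under background, against 16.7% to 29.3%. All 6 arrays lay on 1 slide, with Foxo3 siRNA replicate 1 and the 3 nontargeting arrays in the first row and Foxo3 siRNA replicates 2 and 3 in the second. Any difference within the first row therefore rests on 1 Foxo3 siRNA array. With slide row as a block the difference is the same, since the second row holds no nontargeting array. Foxo3 siRNA replicates 2 and 3 then add only to the estimate of spread, so these 2 settings are not separate checks. The targeted gene was lower on its RefSeq probe, where Foxo3 gave −2.42 (SE 0.340, adjusted p = 0.00542), and not on a probe of a cDNA clone, where it gave 0.25 (SE 0.162, adjusted p = 0.259). On Foxo3 siRNA replicate 3 the RefSeq probe did not clear background.

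**Figure D1:**
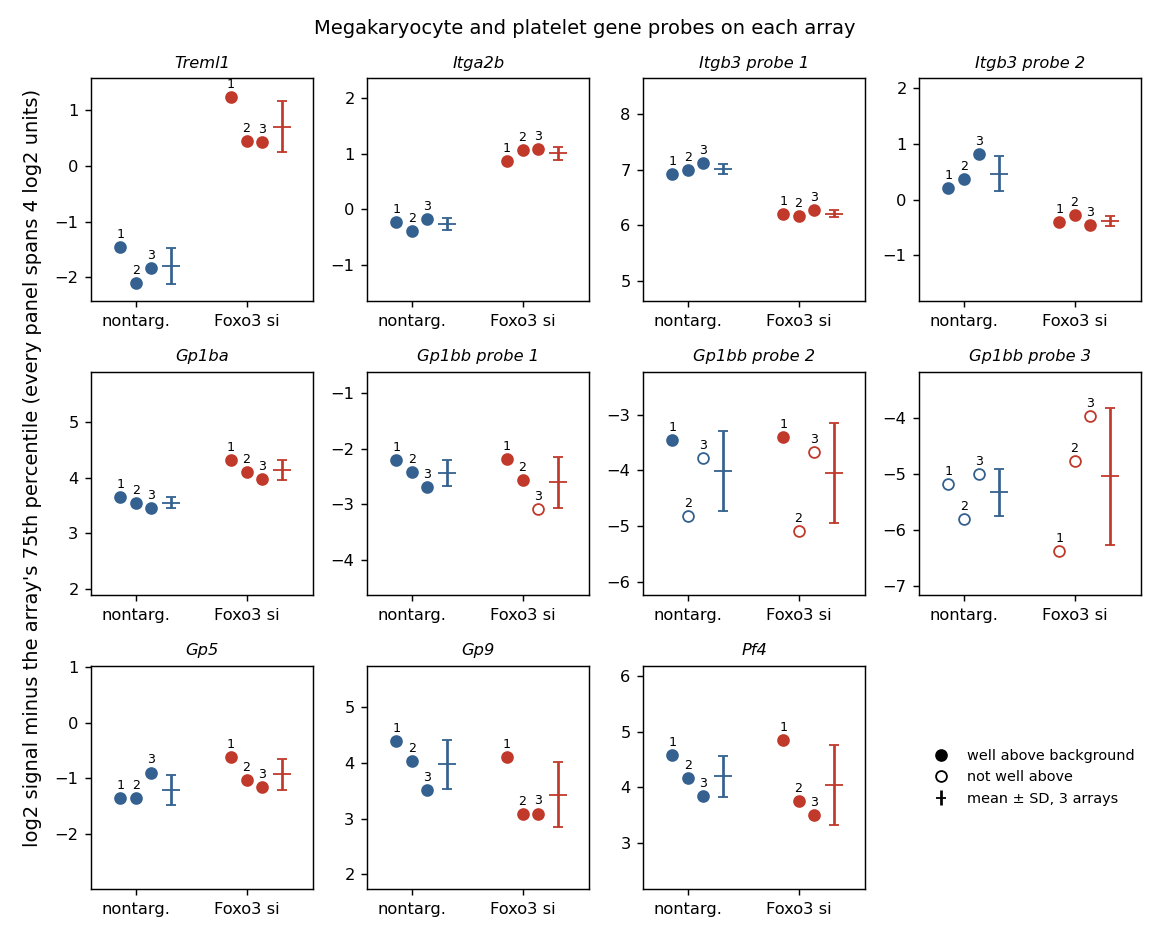
Scaled log2 signal of each of the 11 member probes on each of the 6 arrays (y axis; every panel spans the same number of log2 units), with replicate numbers, and the mean ± SD of 3 arrays per group beside the points. Filled points were well above background; the groups lie apart for Treml1, Itga2b, both Itgb3 probes and Gp1ba.

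Treml1 encodes TLT-1, an inhibitory-motif receptor of the TREM family that is kept in platelet alpha granules. Its only probe lies at chr17:48506365-48506424 on the plus strand (mm9). Its signal was 816, 690 and 533 on Foxo3 siRNA replicates 1 to 3, against 110, 79.0 and 85.3 on nontargeting replicates 1 to 3. Every Foxo3 siRNA array was far above every nontargeting array, and all 6 were well above background. On the scaled log2 scale the means were 0.71 ± 0.46 and −1.80 ± 0.33 (SD, n = 3 each), a difference of 2.50 (SE 0.274, 95% interval 1.85 to 3.16, adjusted p = 0.00274). The difference was called in 15 of 15 alternative settings and ran from 1.93 with normexp background correction to 3.04 with the slide row as a block. The authors' deposited table gives a log2 fold change of 2.23 (adjusted p = 0.0250) for the same probe.

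The fibrinogen receptor showed its 2 chains moving in opposite directions. Itga2b, the αIIb chain also known as CD41, was read by 1 probe at chr11:102319453-102319661 on the minus strand (mm9). Its 60 bases cover 209 bases of genome, so the probe crosses a splice junction and reads spliced RNA. It is shown because the rise of Itga2b rests on it alone.

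Itga2b probe: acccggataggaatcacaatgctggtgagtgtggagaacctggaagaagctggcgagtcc

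The Itga2b signal was 627, 1061 and 832 on Foxo3 siRNA replicates 1 to 3, against 256, 260.1 and 269.8 on the nontargeting arrays. The groups did not overlap, and the nontargeting arrays lay close together. The scaled log2 means were 1.00 ± 0.12 and −0.26 ± 0.11 (SD, n = 3 each), a difference of 1.26 (SE 0.120, 95% interval 0.97 to 1.55, adjusted p = 0.00187). It was called in 14 of 15 alternatives, and was not within the first slide row (1.13, adjusted p = 0.0641). In the authors' deposited table Itga2b has a log2 fold change of 1.13 (adjusted p = 0.0326).

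Itgb3, the β3 chain, which also pairs with αv in other cells, had 2 probes on its transcript, 3047 bases apart. The first lies at chr11:104531672-104531731 and the second at chr11:104528625-104528684, both on the plus strand (mm9). The first probe read 25376, 36324 and 30490.1 in the Foxo3 siRNA group, against 36506, 42926 and 42108 with nontargeting siRNA. Unscaled, the highest Foxo3 siRNA array lay just under the lowest nontargeting array. On the scaled log2 scale the gap was wide, with 6.20, 6.16 and 6.27 against 6.92, 6.98 and 7.11. The difference was −0.80 (SE 0.108, 95% interval −1.06 to −0.54, adjusted p = 0.00494). The second probe read 259, 419.9 and 286 against 348, 439 and 535, and its scaled log2 values were −0.41, −0.28 and −0.46 against 0.21, 0.37 and 0.81. Here too the scaled groups did not overlap, with a difference of −0.85 (SE 0.176, 95% interval −1.27 to −0.43, adjusted p = 0.0182). Both probes kept their sign in every alternative run and were called in 12 and 9 of 15. With each array scaled to its median they gave −0.48 (adjusted p = 0.207) and −0.54 (adjusted p = 0.165) and were not called. That scaling moves the median of all kept probes from −0.16 to 0.15, and against the main median the 2 probes stood at −0.63 and −0.69. Neither was called with no filter (adjusted p = 0.0831 and 0.146) or within the first slide row (0.0976 and 0.184), and the second was not with slide row as a block (0.120). The second probe was also not called without Foxo3 siRNA replicate 3 (−0.81, adjusted p = 0.0633) or without nontargeting replicate 2 (−0.90, adjusted p = 0.0635). The authors' deposited table gives log2 fold changes of −0.74 (adjusted p = 0.0905) and −0.73 (adjusted p = 0.170).

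A ratio of the chains within each array needs no scaling between arrays. It was computed after the values had been seen, as 1 of 4 such ratios. The log2 ratio of Itga2b to the first Itgb3 probe was −5.21 ± 0.12 with Foxo3 siRNA and −7.27 ± 0.11 with nontargeting siRNA (SD, n = 3 each), a change of 2.06 or 4.17-fold. With the second Itgb3 probe the change was 2.11, or 4.33-fold, from −0.73 ± 0.27 to 1.38 ± 0.14. The groups did not overlap for either ratio, and each had an exact two-sided permutation p of 0.1, the smallest that 3 against 3 allows, and 0.133 after adjustment over the 4 ratios. Both ratios restate the rise of Itga2b and the fall of Itgb3 from which they were chosen, and are given as a description.

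**Figure D2:**
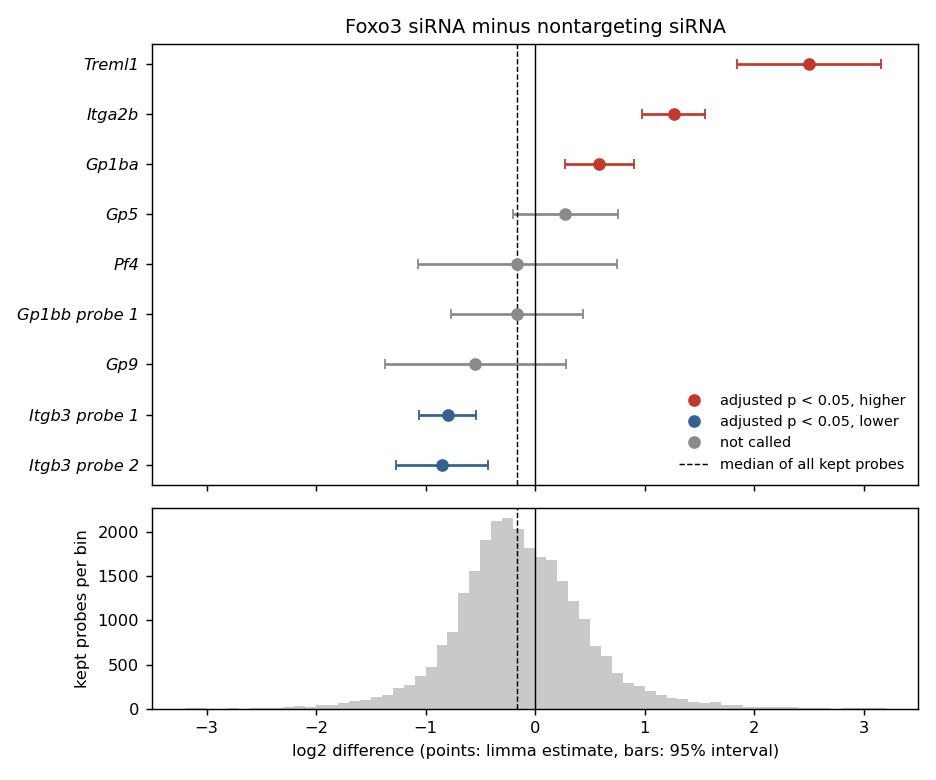
Upper panel, log2 difference (Foxo3 siRNA minus nontargeting siRNA) of the 9 kept member probes with its 95% interval; lower panel, the number of all kept probes in each bin of the same difference. Treml1 at 2.50 and Itga2b at 1.26 lie in the right tail of the histogram, the Itgb3 probes at −0.80 and −0.85 on its left side, and the dashed line marks the median of all kept probes, −0.16.

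Of the von Willebrand factor receptor, the ligand-binding chain rose and the other chains were not called. Gp1ba, which encodes glycoprotein Ibα, was read at chr11:70455461-70455520 on the plus strand (mm9). Its signal was 6917, 8769 and 6236 with Foxo3 siRNA, against 3771, 3976 and 3353 with nontargeting siRNA. All 3 Foxo3 siRNA arrays were higher than all 3 nontargeting arrays. The scaled log2 means were 4.14 ± 0.17 and 3.55 ± 0.09 (SD, n = 3 each), a difference of 0.59 (SE 0.131, 95% interval 0.27 to 0.90, adjusted p = 0.0231). The call held in 8 of 15 alternatives, with adjusted p between 0.00704 and 0.191 and differences between 0.49 and 0.90. It was lost without Foxo3 siRNA replicate 2 (adjusted p = 0.0639) and without nontargeting replicates 1, 2 and 3 in turn (0.0513, 0.0871 and 0.0692), and with no filter (0.191), slide row as a block (0.0513) or the first slide row alone (0.103). In the authors' deposited table Gp1ba has a log2 fold change of 0.60 (adjusted p = 0.151).

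Gp9, the small chain that holds the complex at the surface, was read at chr6:87729650-87729709 on the plus strand (mm9). It gave 5921, 4342 and 3369 in the Foxo3 siRNA group, against 6294, 5553 and 3479 with nontargeting siRNA. Replicate 1 was highest in each group and the groups overlapped. The difference was −0.55 (SE 0.344, 95% interval −1.37 to 0.28, adjusted p = 0.252), and within the first slide row it was 0.12. Set against Gp9 within each array, Gp1ba changed by 1.13 on the log2 scale, or 2.19-fold, from −0.42 ± 0.35 to 0.71 ± 0.42, with no overlap (exact two-sided permutation p = 0.1, 0.133 over the 4 ratios).

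Gp5, which joins the complex loosely and is cleaved by thrombin, was read at chr16:30308347-30308406 on the minus strand (mm9). Its signal was 226, 249.5 and 178 with Foxo3 siRNA, against 117, 132 and 164 with nontargeting siRNA. The raw signals lay apart, while the scaled values overlapped, since nontargeting replicate 3 (−0.89) lay above Foxo3 siRNA replicates 2 and 3 (−1.03 and −1.15). The difference was 0.28 (SE 0.200, 95% interval −0.21 to 0.76, adjusted p = 0.315). This interval holds the Gp1ba difference of 0.59, so the missing call does not set Gp5 apart from Gp1ba. The log2 ratio of Gp1ba to Gp5 was 5.07 ± 0.11 against 4.76 ± 0.35, with overlap (exact two-sided permutation p = 0.2, also 0.2 over the 4 ratios).

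Gp1bb, the chain bound to Ibα by disulfide bridges, was dim. Only 1 of its 3 probes passed the filter, at chr16:18621107-18621166 on the minus strand (mm9), and its sequence is shown because 80% of its bases are G or C.

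Gp1bb probe: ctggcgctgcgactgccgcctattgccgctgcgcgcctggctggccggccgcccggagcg

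This probe read 76.1, 86.1 and 46.6 with Foxo3 siRNA, against 65.1, 63.0 and 47.4 with nontargeting siRNA, and was well above background on all arrays but Foxo3 siRNA replicate 3. The groups overlapped and the difference was −0.17 (SE 0.251, 95% interval −0.77 to 0.43, adjusted p = 0.620), with either sign depending on the scaling. The second probe (chr16:18621535-18621594) was well above background on 2 of 6 arrays, replicate 1 of each group, with signals of 12 to 32.8. The third (chr16:18621717-18621776) was well above background on 0 arrays, with signals of 4.15 to 25.3. Neither has a level that can be compared. Gp1bb is the only member with an overlapping gene in the RefSeq gene table, Septin5, a septin of the platelet cytoskeleton, which gave −0.48 and was not called.

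Pf4, the chemokine CXCL4, is the granule product of the group and was read at chr5:91202275-91202334 on the plus strand (mm9). Its signal was 10017, 6893 and 4459.5 with Foxo3 siRNA, against 7222, 6076 and 4409 with nontargeting siRNA. As for Gp9, replicate 1 was highest and replicate 3 lowest in each group, and the ranges overlapped almost wholly. The scaled log2 means were 4.04 ± 0.72 and 4.20 ± 0.37 (SD, n = 3 each), and the difference was −0.16 (SE 0.379, 95% interval −1.07 to 0.75, adjusted p = 0.755). This interval is wide enough to hold a rise as large as that of Gp1ba.

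**Figure D3:**
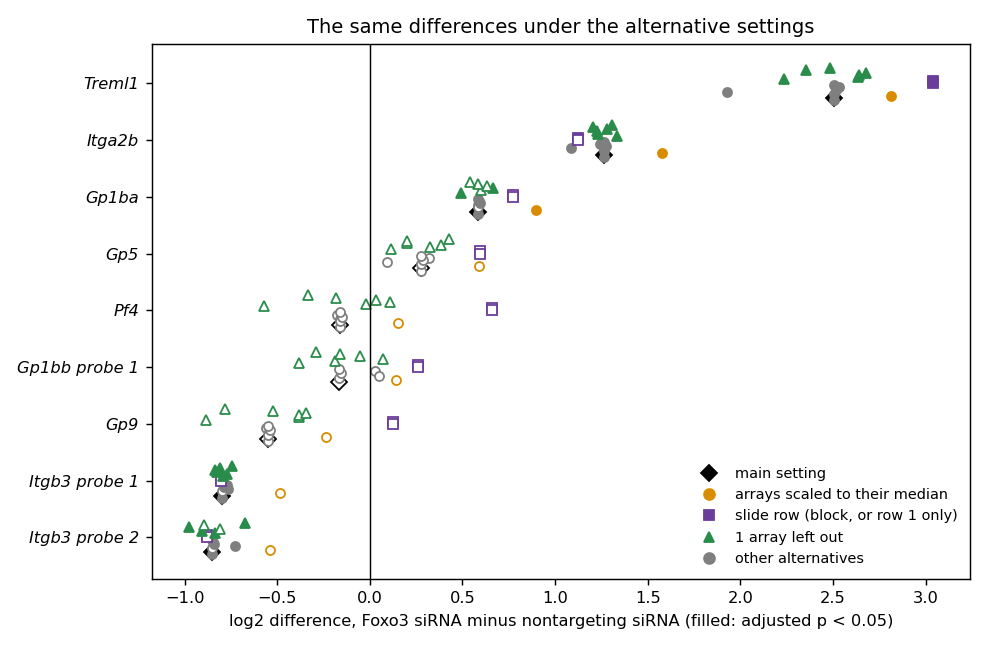
Log2 difference of each kept member probe under the main setting and its alternatives (x axis), filled where the adjusted p was under 0.05. Treml1 and Itga2b stay to the right under every setting, both Itgb3 probes stay to the left with open points under median scaling, and Pf4, Gp1bb and Gp9 have points on both sides of 0.

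The promoters were read from RefSeq's table for GRCm38.p6, which held 7 of the 8 genes, all but Itgb3, as windows from 250 bases before the start site to 50 after it. Searched on both strands were AGATAA and TGATAA, which GATA factors bind, CGGAAG and AGGAAG, ETS core motifs, and GTAAACA, a forkhead motif. A GATA motif was in 3 of the 7 windows (18.6% of all 32851 windows hold either), an ETS motif in 6 of 7 (46.5%), and the forkhead motif in 0 of 7 (3.65%). The windows are those of the 3 genes that rose and the 4 that were not called, so they allow no comparison of rises with falls. Of the genes that rose, Gp1ba had both kinds, Itga2b had ETS motifs only and Treml1 had none of these letters in its window. The 250 bases before the start are shown for the 3 genes that rose and for Gp5, the other gene with 2 GATA matches, with GATA and ETS matches in capitals (TTATCA and TTATCT are GATA matches on the other strand, and CTTCCT is an ETS match there).

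Treml1 (chr17:48359666-48359915, plus strand): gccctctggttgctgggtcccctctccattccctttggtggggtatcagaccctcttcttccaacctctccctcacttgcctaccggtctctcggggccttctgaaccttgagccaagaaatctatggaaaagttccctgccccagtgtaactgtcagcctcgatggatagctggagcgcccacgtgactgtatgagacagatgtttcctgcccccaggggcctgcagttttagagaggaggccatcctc

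Itga2b (chr11:102469884-102470133, minus strand): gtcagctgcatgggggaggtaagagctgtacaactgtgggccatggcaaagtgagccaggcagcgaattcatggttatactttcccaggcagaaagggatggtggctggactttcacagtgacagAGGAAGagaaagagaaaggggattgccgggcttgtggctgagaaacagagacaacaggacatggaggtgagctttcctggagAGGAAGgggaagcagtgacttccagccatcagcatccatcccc

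Gp1ba (chr11:70638872-70639121, plus strand): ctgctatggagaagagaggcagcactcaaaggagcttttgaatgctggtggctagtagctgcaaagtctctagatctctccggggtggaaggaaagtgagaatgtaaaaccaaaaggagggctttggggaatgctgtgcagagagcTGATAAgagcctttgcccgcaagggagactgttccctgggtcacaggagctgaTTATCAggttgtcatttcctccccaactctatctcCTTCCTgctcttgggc

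Gp5 (chr16:30310782-30311031, minus strand): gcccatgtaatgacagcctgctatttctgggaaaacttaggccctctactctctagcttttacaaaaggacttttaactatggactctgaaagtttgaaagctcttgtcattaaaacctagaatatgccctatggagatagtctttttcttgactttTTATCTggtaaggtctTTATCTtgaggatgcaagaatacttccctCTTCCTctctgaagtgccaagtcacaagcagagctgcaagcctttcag

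Counted from the start site, the ETS matches of Itga2b begin at −125 and −43. In Gp1ba the GATA matches begin at −104 and −51, on opposite strands, with an ETS match at −16. Gp5 has its GATA matches at −93 and −77 and an ETS match at −48, all on the other strand. Pf4 has a GATA match that begins at 37, after the start. A match describes letters only, and a window with no match shows only that those letters are not in it.

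**Figure D4:**
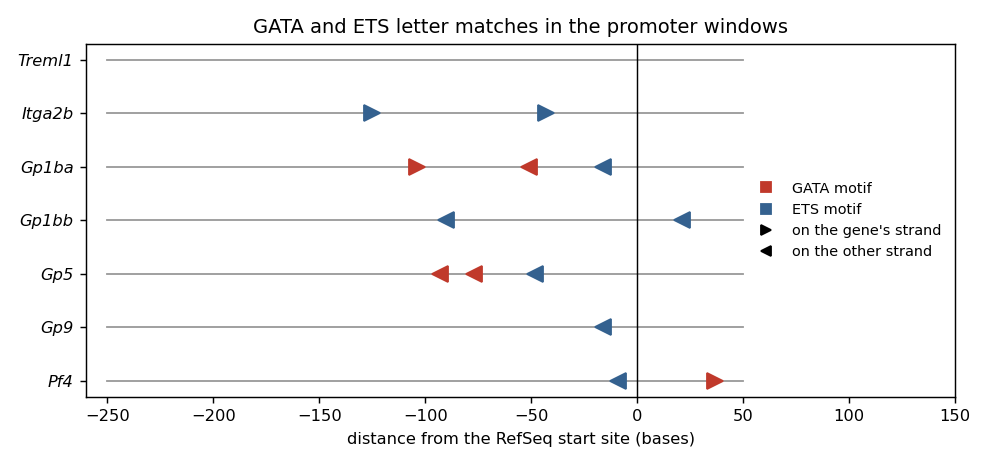
Position of each GATA (red) and ETS (blue) letter match in the 7 promoter windows, in bases from the RefSeq start site, with arrowheads pointing the way the motif reads. Treml1 has no match, Gp1ba and Gp5 each have 2 GATA matches and 1 ETS match, and Itga2b has 2 ETS matches.

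Other genes of the megakaryocyte and platelet programme were taken from 5 lists, with the brightest kept probe standing for each gene. Over the lists 27 of 109 tested genes were called, 10 higher and 17 lower, with a median difference of −0.13. With slide row as a block the calls were 6 higher and 3 lower, and with no filter 1 gene, Zyx, was called. Over all 19246 genes and unnamed features so tested, 26.1% were called, 13% higher and 13.1% lower, with a median of −0.16.

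The platelet receptor list held 30 genes besides the members, of which 18 could be tested, 4 rose and 2 fell. Treml2, a TREM-like receptor of the same gene cluster as Treml1, is counted both in this list and in the TREM family list. It rose by 1.00 in log2 units (SE 0.130, adjusted p = 0.00433), and its other probe gave 0.96 (adjusted p = 0.00475). F11r, the junctional adhesion molecule JAM-A, rose by 0.97 (SE 0.126, adjusted p = 0.00439). Ptgir, the prostacyclin receptor that restrains platelets, rose by 0.75 (SE 0.121, adjusted p = 0.00814; 0.0809 with slide row as a block). Ly6g6f, a platelet surface protein, fell by 1.16 (SE 0.144, adjusted p = 0.00387). Gp6, the collagen receptor (1.41, adjusted p = 0.0420), and Pear1 (−0.85, adjusted p = 0.0445) were also called, each with 2 of 3 Foxo3 siRNA arrays well above background, so that Pear1 passed the filter only through the group where it is high. These 2 are named after their values were seen. Well above background on 0 arrays were 9 of the 30, among them P2ry12, Cd9 and F2r.

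Among 30 granule and secreted proteins, 16 could be tested and 1 was called. Nbeal2, which alpha granules need to form, rose by 0.62 (SE 0.113, adjusted p = 0.0118), with 0.73 (adjusted p = 0.0308) on its other probe; without nontargeting replicate 2 it gave 0.59 (adjusted p = 0.0632), and with slide row as a block the adjusted p was 0.108. Lyst (−0.61, adjusted p = 0.0529), Srgn, the granule proteoglycan serglycin (−0.33, adjusted p = 0.0738), and Fga, a fibrinogen chain (−0.59, adjusted p = 0.0745), were not called. Ppbp and Thbs1, abundant in platelets, were well above background on 0 arrays and Vwf on 1.

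The cytoskeleton and proplatelet list had 25 tested genes of 28, with 3 higher and 4 lower. Gsn, which severs actin filaments, rose by 1.67 (SE 0.250, adjusted p = 0.00667), and Was, the Wiskott-Aldrich protein that starts actin branching, rose by 0.71 (SE 0.129, adjusted p = 0.0118; 0.0993 with slide row as a block). Zyx, a focal adhesion protein, fell by 1.16 (SE 0.101, adjusted p = 0.00149). Tpm4, a tropomyosin, entered the test through the nontargeting group alone, with 0 of the 3 Foxo3 siRNA arrays well above background, so its call (adjusted p = 0.00410) describes a gene chosen for being high in that group. It was at least 8.56-fold lower, and it was not called with slide row as a block (adjusted p = 0.0530) or with no filter (adjusted p = 0.0523). The bound sets the nontargeting mean against each dim array's lowest well-above-background level or own value, whichever was higher, and it does not hold with normexp and its offset, where the log2 difference was −1.39. Tubb1, the platelet β1-tubulin, gave 0.42 and was not called. Cfl1 (0.67), Mical1 (−0.53) and Kif2a (−0.53) made up the calls and are named after their values were seen. Among 32 platelet signalling genes, 21 were tested and 1 was called. Rasgrp2, the exchange factor that switches on RAP1 ahead of integrin activation, rose by 0.68 (SE 0.143, adjusted p = 0.0196), with 0.70 on its other probe. Its call was lost without Foxo3 siRNA replicate 3 (0.62, adjusted p = 0.0684) and without each nontargeting array in turn (adjusted p between 0.0501 and 0.0829), and with slide row as a block (adjusted p = 0.0678).

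Of 29 tested transcription factors of the lineage, 1 rose and 11 fell, with a median of −0.35, where 13.1% of all genes and features fell. Among the falls, Mef2c (−0.77), named after its value was seen, had 2 of 3 Foxo3 siRNA arrays well above background. It passed the filter only through the group where it is high. With median scaling the same 29 gave 1 higher, 1 lower and a median of −0.03, with slide row as a block they also gave 1 higher and 1 lower, and the count of falls without 1 array ranged from 3, without nontargeting replicate 2, to 11. Lmo2, a bridging factor of the GATA-1 complex, fell by 0.93 (SE 0.126, adjusted p = 0.00500). Mafk, a small MAF partner of NF-E2, fell by 0.78 (SE 0.117, adjusted p = 0.00663), and Gfi1b, a repressor needed in both lineages, fell by 0.75 (SE 0.132, adjusted p = 0.0108). Median scaling ended all 3 calls, with −0.62 for Lmo2 (adjusted p = 0.106), −0.47 for Mafk (adjusted p = 0.228) and −0.44 for Gfi1b (adjusted p = 0.273). Slide row as a block ended those of Mafk (adjusted p = 0.0694) and Gfi1b (adjusted p = 0.0981), and that of Gfi1b was also lost without nontargeting replicate 2 (adjusted p = 0.0584). Lyl1, a relative of TAL1, rose by 1.28 (SE 0.190, adjusted p = 0.00640; 0.0697 with slide row as a block). Gata2, high in progenitors, fell by 0.91 (SE 0.223, adjusted p = 0.0304), and Nfe2, a driver of platelet release, fell by 0.49 (SE 0.111, adjusted p = 0.0244). The Gata2 and Nfe2 calls were lost in 9 of the 15 alternatives each, among them median scaling (−0.60 and −0.18). Gata1 signal gave −0.09 (adjusted p = 0.632), Fli1 gave −0.14 (adjusted p = 0.419), and the 2 Runx1 probes gave −0.18 (adjusted p = 0.260) and 0.39 (adjusted p = 0.0560). These 4 readings passed no test.

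**Figure D5:**
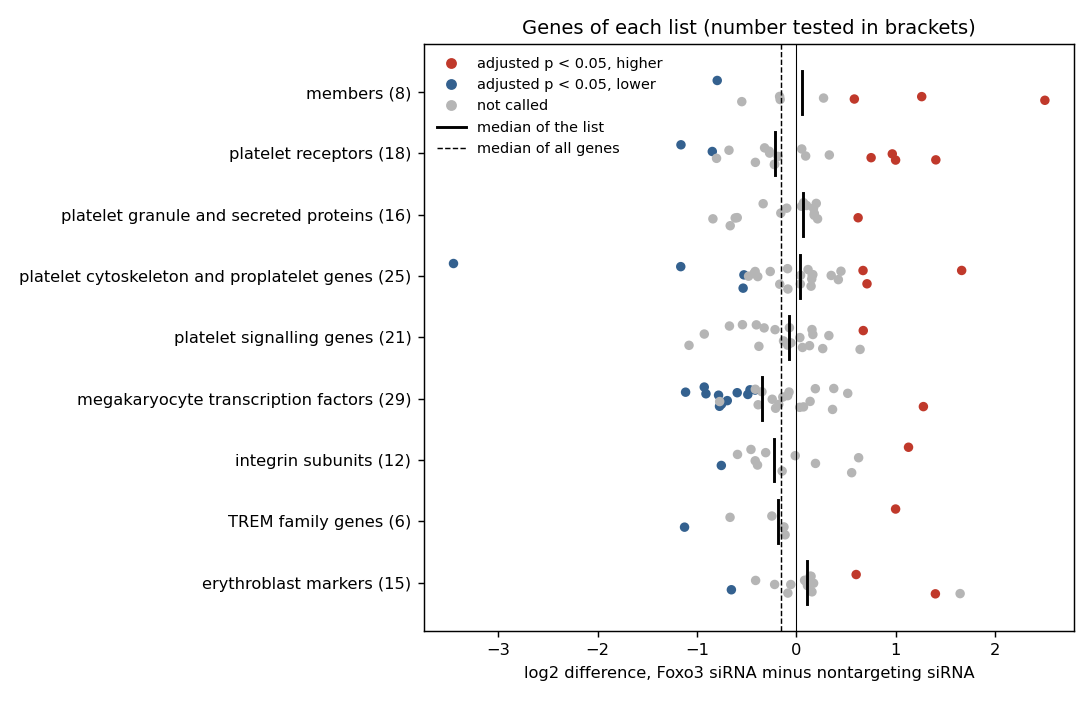
Log2 difference of every tested gene of the member set, the 5 programme lists, 2 gene families and the erythroblast markers (x axis; 1 point per gene, red higher, blue lower, grey not called), with the median of each list as a bar and that of all genes as a dashed line. In the transcription factor list 11 of 29 genes fell, against 13.1% of all genes and features tested, and 1 of 29 fell with median scaling. The member set spans from −0.80 to 2.50.

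The cell type was checked with marker lists. All 15 erythroblast markers could be tested; Rhag (1.40, adjusted p = 0.00641) and Tfrc (0.60, adjusted p = 0.0125; 0.35 and 0.34, not called, on its other probes) rose, Car2 (−0.65, adjusted p = 0.0108) fell, and the median was 0.11. With slide row as a block limma called 0 of the 15 (Rhag 1.50, adjusted p = 0.0538), with 4 at an unadjusted p under 0.05. Summed scaled signals of the list ran from 1943 to 2342 with Foxo3 siRNA and from 2557 to 2628 with nontargeting siRNA. Such linear sums, here and below, follow the brightest genes and do not describe a list as a whole. Here these are Alas2 (−0.41) and Ahsp (−0.22), which were not called, and Car2. Among neutrophil and macrophage markers 9 of 18 could be tested and 1 was called, Lcn2, which fell (−0.57, adjusted p = 0.0306), with a list median of −0.45. Csf3r, Itgam, Elane, Csf1r, Spi1, Cd68 and Lcn2 were well above background on all 6 arrays, while Mpo, Lyz2, S100a8, S100a9 and Ly6g were on 0. The summed signal of this list was 240.4 to 305 against 306 to 400.3, with Csf3r the brightest gene (scaled log2 mean 7.62 against 8.02, not called). Of mast cell and basophil markers 5 of 14 could be tested and 2 were called lower, Gata2 and Hdc (−1.23, adjusted p = 0.00854). Hdc, with 2 of 3 Foxo3 siRNA arrays well above background, passed the filter only through the group where it is high. The list median was −0.76, with Cpa3, Mcpt8 and Tpsab1 well above background on 0 arrays and sums of 5.27 to 7.84 against 9.81 to 13.3. Lymphocyte markers gave 5 testable of 14 with 0 calls by limma (1 at an unadjusted p under 0.05) and sums of 15.1 to 17.4 against 15.9 to 23.8. Stromal and endothelial markers gave 2 of 12, with Kdr lower (−0.68, adjusted p = 0.0269) and sums of 17.1 to 21.3 against 26.7 to 36.4. Kdr was the brighter of the 2. With slide row as a block limma called 0 neutrophil and macrophage, 0 mast cell and basophil and 0 stromal and endothelial markers. At an unadjusted p under 0.05 there were 1, 1 and 0. With median scaling these lists gave 1 higher and 0 lower, 0 higher and 1 lower, and 0 and 0, in the same order. The summed member signal was 115 to 145 against 174 to 181. That sum follows the brightest member, Itgb3 (scaled log2 mean 6.21 against 7.01), which fell, while 3 of the 8 genes rose and the list median was 0.06. The part of other cell types in the member values was not tested.

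For each called member, the 3 other named genes whose brightest kept probe followed it most closely over the 6 arrays were found among 12620 genes, by Pearson's r with no test. Such r mixes the difference between groups with the spread within them. Treml1 was most alike with Psmb4 (0.999), Pa2g4 (0.998) and Cib1 (0.997), which changed by only 0.31 (not called), 0.36 and 0.41. Itga2b was most alike with Ppcs (0.999), Odc1 (0.999) and Chid1 (0.998), which changed by 0.54, 1.37 and 0.97. Itgb3 was most alike with Lgals3, Itga10 and Tuft1 (0.998 each), which changed by −3.24, −0.75 and −2.06. Gp1ba was most alike with Mzt2 (0.998), Zkscan5 and Aimp1 (0.996 each), which changed by 0.39, 0.37 (not called) and 0.46. The lists of the 4 members hold no gene in common.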

How the data were processed

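RNA of 6 samples was labelled with Cy3 and hybridised to 1-colour Agilent mouse arrays of 60-base probes. Per the file headers, the spot intensity came from Feature Extraction 10.7.3.1, after background subtraction and detrending and with surrogates for signals not above background. The authors' deposited series file holds the same intensity and, per spot, a log2 fold change, a p-value and an adjusted p-value. Per the submitters' processing notes limma was used; the normalization behind that log2 fold change and p-value is not given in the sources used here.

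Control spots (3671 of 62976) were left out, outlier spots set to missing, log2 intensity scaled to the 75th percentile of each array, and spots of 1 probe averaged. A probe was kept if some group had it well above background on each of its 3 arrays. Groups were compared with limma 3.58.1 in R 4.3.3 (lmFit, eBayes, two-sided, no covariate), tested on simulated data first, and adjusted over the kept probes; the call threshold was 0.05. The number of arrays limits the precision. Probe positions are those of the array design (mm9), which gives no exon or UTR, so none is assigned. Gene names followed RefSeq through accession (27235 probes), symbol (3581) or synonym (565), with 24300 unmatched. The alternatives were another scaling (quantile or median), normexp with an offset of 50, another filter, outliers kept, replicate number or slide row as a block, the first slide row alone, and each array left out.

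Named genes are all member and Foxo3 probes, up to 4 genes per list with the smallest adjusted p, Gata1, Gata2, Fli1, Runx1 and Nfe2, and the 3 genes most alike to each called member; others are marked as chosen later. One result that the rule names is not reported here. The members, lists and rules were chosen with earlier results of these data known. Whether replicate numbers pair the samples is not known, and the main fit did not pair them.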

Additional observations from a re-analysis of the deposited data

How the results depend on the processing

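The fall of Foxo3 on its RefSeq probe and the directions of Treml1, Itga2b, Gp1ba, Gp5 and both Itgb3 probes held under every alternative that gave a value. Of all kept probes 6874 were called, against 635 with no filter on dim signals, 1892 with slide row as a block and 753 in the first row alone. Leaving out 1 array gave 2681 to 6000 (3852 and 3783 without Foxo3 siRNA replicates 2 and 3, and 3704, 2681 and 4218 without nontargeting replicates 1, 2 and 3). For the 5 programme lists the 27 calls became 16 with median scaling, 1 with no filter, 9 with the slide row block and 4 in the first row, and 13 to 28 with 1 array left out (17 without Foxo3 siRNA replicate 3, 16 and 13 without nontargeting replicates 1 and 2). The 5 member calls became 3, 2, 3 and 1 in the same order, and 3 to 5 with 1 array left out (3 without nontargeting replicate 2). With no filter more probes were tested, and with fewer arrays the fit had fewer samples. With slide row as a block, as in the first row alone, the difference rests on 1 Foxo3 siRNA array. Other causes were not tested.

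The share of rises among calls was 47.8%, against 77.4% with median scaling, 65.4% with no filter, 59.2% with the slide row block and 65.2% in the first row. Signs turned only for genes that were not called. Gp1bb gave 0.027 with quantile normalization, 0.14 with median scaling, 0.051 with normexp, 0.26 with either slide row setting and −0.38 to 0.069 with 1 array left out, positive without Foxo3 siRNA replicate 3. Gp9 gave 0.12 with either slide row setting. Pf4 gave 0.15 with median scaling, 0.66 with either slide row setting and −0.57 to 0.11 with 1 array left out, positive without Foxo3 siRNA replicate 3 and without nontargeting replicate 1. Gp1bb and the RefSeq Foxo3 probe have no value when all 6 arrays must be well above background.

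Deviations of same-numbered arrays correlated at 0.16, −0.31 and 0.11, and those of differently numbered arrays at −0.37 to 0.29. With so few arrays these values do not decide whether the numbers pair the samples. The replicate block gave 6900 kept probes, 24 list genes and 5 member probes called. Dim probes limit what can be read: Gp1bb, and the many list genes under background, may differ by amounts not detectable here.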

Other observations

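Of 24 other integrin subunits 12 could be tested, 1 rose and 1 fell, with a median of −0.22, against 26.1% called and a median of −0.16 over all genes and features tested. Itgb2, the β chain of leukocyte integrins, rose by 1.13 in log2 units (SE 0.123, adjusted p = 0.00265), and Itga10, a collagen-binding α chain, fell by 0.75 (SE 0.103, adjusted p = 0.00510), with −0.69 on its other probe. Itga4 gave −0.39 (adjusted p = 0.0610) and Itgb4 −0.46 (adjusted p = 0.0913). Itgav, the other α partner of β3, gave 0.63 and was not called. Itgal counts as not called by its brightest probe (−0.31, adjusted p = 0.172), though 2 of its 3 kept probes were called higher. Itgav and Itgal are named after their values were seen. Of 12 TREM family genes 6 could be tested. Besides Treml2, Cd300lf was called lower (−1.12, adjusted p = 0.0430), with 2 of 3 Foxo3 siRNA arrays well above background; it passed the filter only through the group where it is high and is not among the 3 genes left when all 6 arrays must pass. In the same list Cd300a gave −0.67 (adjusted p = 0.0945) and Trem1 −0.25 (adjusted p = 0.187). Under median scaling the medians of the integrin and TREM lists were 0.09 and 0.13. Of 9 CXC chemokine genes besides Pf4, 1 could be tested and 6 were well above background on 0 arrays. Cxcl11 gave −0.54 (adjusted p = 0.0410) on its brighter probe and −0.40 (adjusted p = 0.121) on the other. The call was lost with quantile normalization (−0.25), median scaling (−0.23), normexp (−0.31), no filter and slide row as a block. It was also lost without Foxo3 siRNA replicate 2 or 3 and without each nontargeting array in turn.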
